A study of Mus musculus with 18 samples.

Results

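The genes described here are those of glycolysis, the pathway that splits glucose into pyruvate, together with genes known as targets or partners of HIF-1, the transcription factor that cells stabilise when oxygen is short. A list of 40 genes was taken by name, and each was represented by the probe set carrying that symbol alone with the highest mean log2(signal + 16) over all arrays. Of the 40 genes, 37 had such a probe set, among 18194 genes named on the array. Gpi1, Eno1 and Pfkfb1 were not analysed here. The 37 genes have 78 probe sets, of which 70 were tested. Of the genes 36 were tested. Gapdh has its probe sets among the array's controls, which were left out of the fit.

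RNA from mouse immune cells was hybridised to 18 Affymetrix arrays, with 6 untreated control arrays (0 h) and 6 each taken 1 h and 4 h after exposure to an extract of cell wall, the material that encloses microbes and that immune cells sense as foreign. None of the 18 is an untreated array of 1 h or 4 h, so the extract cannot be told apart from elapsed time and handling. The design note speaks of knockout animals, but the labels give no genotype, strain, age, cell type or animal, so which arrays carry a deletion, and of which gene, is not known here. The titles carry array codes that fall in 3 blocks (44 to 54, 32 to 37, 12 to 22), what they stand for is not stated, and each block holds 2 arrays per time. Nothing in the labels says whether the 6 arrays of a time come from separate animals or cultures, so p-values measure the spread between these arrays, which may be technical in part.

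In glycolysis, glucose enters through carrier proteins, is trapped by hexokinase, committed by phosphofructokinase and passed through a chain of enzymes to pyruvate, which is reduced to lactate and exported or handed to pyruvate dehydrogenase in the mitochondrion. Macrophages and related cells are known to take up more glucose and release more lactate after sensing bacterial products. HIF-1 is held low by prolyl hydroxylases that mark its alpha subunit for destruction, and it is known to raise many glycolytic genes, also in activated macrophages with oxygen present.

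HIF-1 is known to bind DNA around the letters ACGTG, so the promoters of the genes were read for that motif. RefSeq promoter sequences of the mouse assembly GRCm38.p6, which run from 250 bases before to 50 bases after each start site, were found for 39 of the 40 genes, all but Slc2a3. The motif ACGTG, on either strand (written CACGT where it lies on the reverse strand), stood in the promoter of 26 of these 39 genes (66.7%), against 21.8% of 27025 genes with a promoter in the same table and 19.6% of 32851 single promoters. The list was chosen in part for known HIF-1 targets, so its higher share is not independent of that choice. Where the palindrome CACGTG occurs, it holds a match on each strand. That palindrome stood in 7.15% of all promoters. The following promoters are shown because they belong to genes that rose at 4 h (Slc2a1, Hk2 and Bnip3), to a gene that fell (Pdk2) and to genes of the pathway that did not pass the test (Ldha and Pgk1). They are written 5′ to 3′ on the strand of the gene, and capitals mark ACGTG on either strand. Each promoter shown holds the motif, while a further promoter of Pdk2 and another of Ldha, not shown, do not.
Slc2a1 (chr4:119108495-119108794, + strand): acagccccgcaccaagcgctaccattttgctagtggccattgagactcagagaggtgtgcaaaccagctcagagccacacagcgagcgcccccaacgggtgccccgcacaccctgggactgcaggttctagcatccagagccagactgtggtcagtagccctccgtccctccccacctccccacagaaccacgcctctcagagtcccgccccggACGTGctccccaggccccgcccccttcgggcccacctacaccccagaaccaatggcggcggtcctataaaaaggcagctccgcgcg
Hk2 (chr6:82774405-82774704, - strand): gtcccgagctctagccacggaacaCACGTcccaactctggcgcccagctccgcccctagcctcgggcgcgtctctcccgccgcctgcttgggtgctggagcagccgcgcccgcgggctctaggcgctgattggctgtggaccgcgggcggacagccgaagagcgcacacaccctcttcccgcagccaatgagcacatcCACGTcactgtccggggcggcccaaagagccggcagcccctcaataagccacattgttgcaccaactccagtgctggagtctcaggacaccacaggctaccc
Bnip3 (chr7:138909457-138909756, - strand): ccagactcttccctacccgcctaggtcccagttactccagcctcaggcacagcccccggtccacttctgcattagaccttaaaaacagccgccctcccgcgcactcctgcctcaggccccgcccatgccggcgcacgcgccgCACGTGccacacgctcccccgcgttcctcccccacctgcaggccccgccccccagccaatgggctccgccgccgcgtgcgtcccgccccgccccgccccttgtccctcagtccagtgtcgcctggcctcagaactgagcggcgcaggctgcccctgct
Pdk2 (chr11:95041322-95041621, - strand): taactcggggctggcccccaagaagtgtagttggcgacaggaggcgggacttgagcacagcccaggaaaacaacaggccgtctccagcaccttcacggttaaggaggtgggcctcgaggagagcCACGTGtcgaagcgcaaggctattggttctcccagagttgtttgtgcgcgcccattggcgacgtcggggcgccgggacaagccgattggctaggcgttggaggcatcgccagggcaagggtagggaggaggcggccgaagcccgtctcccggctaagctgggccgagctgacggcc
Ldha (chr7:46845554-46845853, + strand): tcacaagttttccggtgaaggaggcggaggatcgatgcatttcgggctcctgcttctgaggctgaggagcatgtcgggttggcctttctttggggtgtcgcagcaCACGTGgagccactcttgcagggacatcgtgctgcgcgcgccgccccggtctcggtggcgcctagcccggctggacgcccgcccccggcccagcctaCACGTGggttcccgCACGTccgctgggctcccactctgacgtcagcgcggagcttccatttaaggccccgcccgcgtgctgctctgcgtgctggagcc
Pgk1 (chrX:106186850-106187149, + strand): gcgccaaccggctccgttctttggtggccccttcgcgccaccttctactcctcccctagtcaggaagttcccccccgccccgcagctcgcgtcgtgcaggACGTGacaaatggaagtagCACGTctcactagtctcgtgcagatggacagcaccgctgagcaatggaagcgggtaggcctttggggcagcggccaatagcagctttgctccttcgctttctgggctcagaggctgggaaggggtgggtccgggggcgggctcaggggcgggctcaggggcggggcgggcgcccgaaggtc
Among genes that rose at 4 h, 6 of 10 had the motif, as had 3 of 5 that fell and 16 of 20 that did not pass. Of the genes that rose, Slc2a6, Pfkl, Eno2 and Adm had no ACGTG on either strand in these windows. Other forms of the HIF-1 site were not searched, so these promoters may hold them. A match is a description of the letters and not a measured binding site.

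At 4 h against 0 h the list split. Glucose carriers Slc2a1 and Slc2a6, the regulator Pfkfb3, the hexokinase Hk2, the phosphofructokinase subunit Pfkl, Hif1a itself and the HIF-1 targets Adm, Bnip3 and Ddit4 rose, as did Eno2. The regulators Pfkfb4 and Pfkfb2, the carrier Slc2a3, the kinase Pdk2 and the subunits Pfkm and Ldhb fell. The enzymes that form the trunk of the pathway (Aldoa, Tpi1, Pgk1, Pgam1, Pkm and Ldha) did not pass the test. At 1 h no gene of the list passed.

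By limma, a linear model fitted to log2(signal + 16) over all probe sets with Benjamini-Hochberg adjustment and a threshold of 0.05, 16 of the 36 tested genes were called at 4 h. Of these, 10 rose (27.8% of the 36) while 9.93% of the 25804 probe sets that passed a filter on dim signals were called up. The other 6 fell (16.7%) while 23.1% of all probe sets were called down. Fold changes are of signal + 16, which understates those of dim genes. Their median on the log2 scale was 0.29 over the 36 genes and -0.22 over all tested probe sets. Each array had been scaled by the submitters' software to a common trimmed mean, and the median signal of an array lay between 74.7 and 87.5 at 4 h, against 89.8 to 105.4 at 0 h. With the array medians set equal instead, the median over all probe sets moved to 0.06, and 15 genes rose and 4 fell, beside 17.3% and 9.54% of all probe sets. Pfkm and Ldhb were the calls lost there. By role, 2 of 3 hexokinases, 2 of 6 upper and 2 of 4 lower pathway genes and 3 of 4 genes of oxygen sensing rose there. In the main fit 1 rose in each of these roles. With code range as a block, 22 genes were called, 15 up and 7 down, beside 12.6% and 30.3% of all probe sets. The arrays of 4 h lay all above those of 0 h for 4 of the 36 genes (11.1%), beside 5.59% of all tested probe sets, and all below for 3 (8.33%), beside 11.3%. Eno2, counted among these 4 and among the 10 that rose, is dim and passed the filter only through the arrays of 4 h. The plot of fold changes by role shows the rises and falls of the list.

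**Figure D1:**
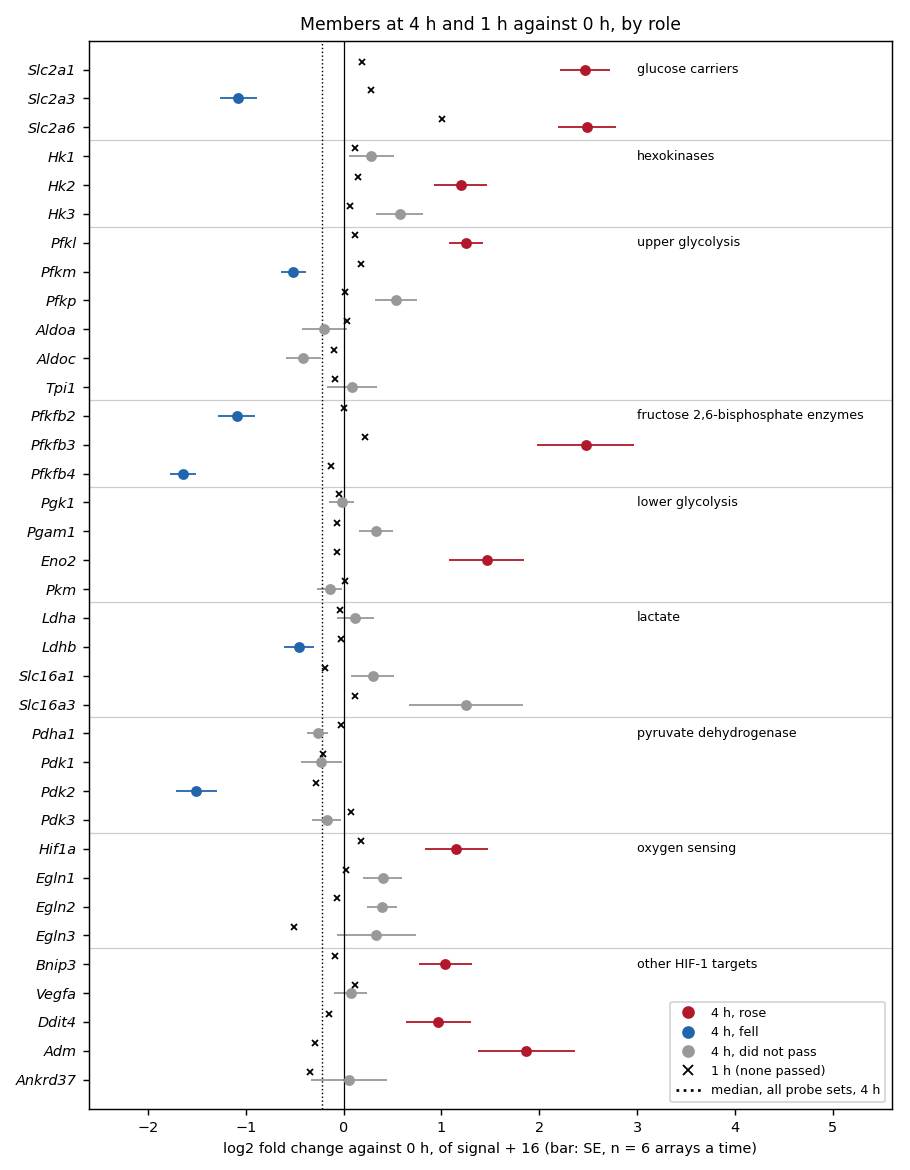
Log2 fold change of signal + 16 at 4 h against 0 h (dots, bars are standard errors, 6 arrays a time) and at 1 h against 0 h (crosses) for the 36 tested genes, grouped by role. The dotted line is the median of all tested probe sets at 4 h, -0.22, and dots from -1.64 (Pfkfb4) to 2.49 (Slc2a6) stand on both sides of it.

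Of the 3 glucose carriers, 2 rose and 1 fell. Slc2a1, which encodes GLUT1, the common carrier of glucose uptake, had signals of 1749, 2073 and 3562 at 0 h (lowest, median and highest of 6 arrays), 1806, 2372 and 4160 at 1 h and 7286, 12460.0 and 17514 at 4 h. Every array at 4 h stood above every array at 0 h and at 1 h. The log2 rise over 0 h came to 2.47 ± 0.25 (SE), or 5.53-fold (limma, adjusted p = 1.37e-06), and the 2 further probe sets rose by 2.73 and 2.66. Since the cells were measured in bulk, a change in the RNA of each cell and a change in the share of cells that carry it cannot be told apart here or below.

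Slc2a6 encodes GLUT6, a carrier found on internal membranes. Its signals were 380.8, 419.2 and 899.7 at 0 h, 496.9, 1081 and 1768 at 1 h and 2108, 2766 and 4535 at 4 h. The 3 times stood in steps, with no array at 4 h as low as any at 1 h and with overlap between 1 h and 0 h. On the log2 scale Slc2a6 rose by 2.49 ± 0.30 at 4 h against 0 h (limma, adjusted p = 7.16e-06) and by 1.49 ± 0.30 at 4 h against 1 h (limma, adjusted p = 0.00142).

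Slc2a3 encodes GLUT3, a carrier of high affinity for glucose. Its signals were 528.4, 716.0 and 839.5 at 0 h, 632.8, 836.3 and 1106 at 1 h and 224.4, 330.6 and 517.2 at 4 h. All arrays at 4 h lay below all arrays of the earlier times, though the highest at 4 h was close to the lowest at 0 h. Slc2a3 had a log2 fold change of -1.07 ± 0.19 at 4 h (limma, adjusted p = 0.000337), and another of its probe sets fell by 0.87.

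**Figure D2:**
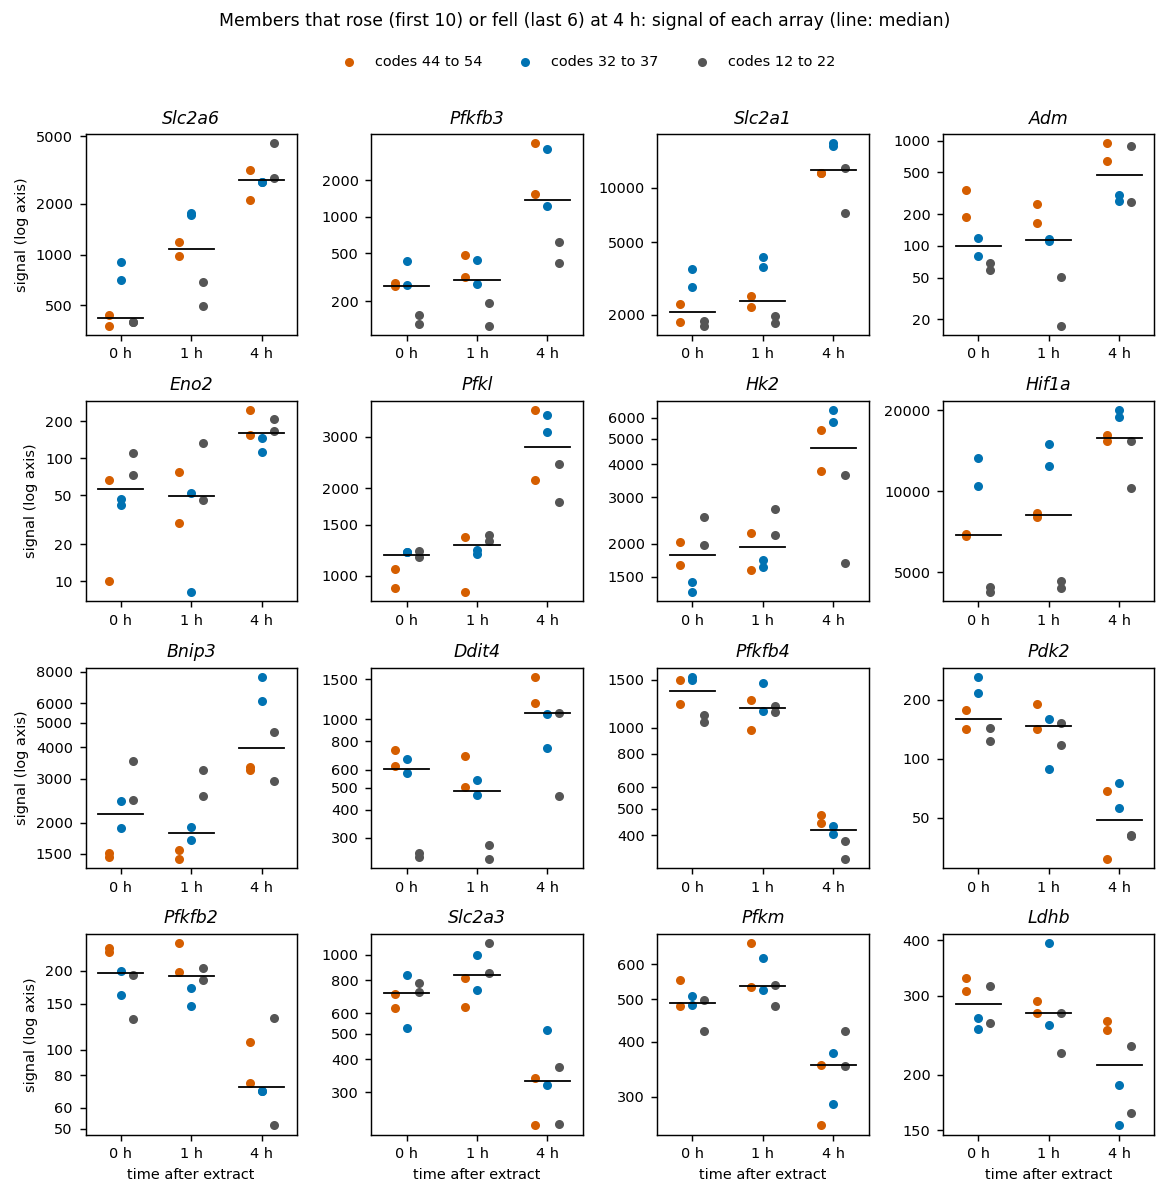
Signal on a log axis of each array at 0, 1 and 4 h for the 16 genes called at 4 h against 0 h, coloured by range of array codes, with the median of each time as a line. The arrays of 0 h and 1 h overlap in every panel, while for Slc2a1, Slc2a6, Slc2a3, Pfkl, Pfkfb4, Eno2 and Pdk2 those of 4 h stand clear of those of 0 h.

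Hexokinases add a phosphate to glucose and so keep it in the cell. Of the 3 tested, Hk2 alone passed. Hk2 had signals of 1309, 1817 and 2531 at 0 h, 1595, 1944 and 2697 at 1 h and 1687, 4593 and 6424 at 4 h. One array at 4 h, of code 22, remained within the levels of 0 h, so the groups overlapped. Hk2 rose by 1.19 ± 0.27 on the log2 scale (limma, adjusted p = 0.00228). Within the code ranges the log2 fold change was 1.30 in codes 44 to 54, 2.14 in 32 to 37 and 0.15 in 12 to 22, a difference between ranges that did not pass the test of interaction (limma, adjusted p = 0.139). Hk3, the form most abundant in myeloid cells, had a log2 fold change of 0.57 ± 0.24 that did not pass (adjusted p = 0.0771) but passed with code range as a block (adjusted p = 0.019). Another probe set of Hk3 rose by 0.64 (adjusted p = 0.0268). In codes 12 to 22 Hk3 was lower at 4 h, with signals of 3037 and 3145, against 3451 and 3497 at 0 h. It was higher at 4 h in codes 32 to 37 (4013 and 4049, against 1870 and 2073) and 44 to 54 (2762 and 3414, against 1621 and 1766). This difference between ranges did not pass the test of interaction (limma, adjusted p = 0.0969). Hk1, the widely expressed form, was at 0.28 ± 0.23 (adjusted p = 0.363). Its signals at 4 h were 870.6 and 913.7 in codes 12 to 22, against 1191 and 1392 at 0 h. In codes 32 to 37 they were 2047 and 2368, against 895.3 and 1295, and in codes 44 to 54 1069 and 1788, against 1054 and 1108. The interaction did not pass (limma, adjusted p = 0.182).

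Phosphofructokinase, the committing step, is built from the subunits Pfkl, Pfkm and Pfkp, named for liver, muscle and platelet. These moved apart. Pfkl had signals of 907.3, 1184 and 1222 at 0 h, 879.6, 1272 and 1387 at 1 h and 1797, 2769 and 3708 at 4 h, without overlap between 4 h and the earlier times. Pfkl rose by 1.25 ± 0.17 on the log2 scale (limma, adjusted p = 3.36e-05), another probe set rose by 1.13, and a further one, at 0.57, did not pass (adjusted p = 0.138). Pfkm had signals of 423.2, 491.5 and 552.8 at 0 h, 483.0, 536.3 and 670.0 at 1 h and 258.2, 353.6 and 423.8 at 4 h. The highest Pfkm array at 4 h only just reached the lowest at 0 h. The log2 fold change of -0.52 ± 0.13 (limma, adjusted p = 0.00457) was -0.23 with the array medians set equal (adjusted p = 0.276) and -0.31 after quantile normalization (adjusted p = 0.0849). Pfkp was at 0.53 ± 0.21 (adjusted p = 0.0605), passed with code range as a block (adjusted p = 0.00106), and had another probe set that rose by 0.64 and a further one, at 0.17, that did not pass.

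The next enzymes of the upper pathway are aldolase, which splits the phosphorylated sugar, and Tpi1, which interconverts the products. Aldoa had a log2 fold change of -0.20 ± 0.23 and Tpi1 of 0.08 ± 0.25, and neither passed (limma, adjusted p = 0.545 and 0.832). The brain-type aldolase Aldoc was at -0.41 ± 0.18 (adjusted p = 0.0812), and another of its probe sets fell by 0.85 (adjusted p = 0.0212).

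The Pfkfb enzymes make and break fructose 2,6-bisphosphate, the strongest known activator of phosphofructokinase. All 3 tested passed at 4 h, and they moved in opposite directions. Pfkfb3, whose product favours synthesis of the activator, had signals of 129.2, 268.7 and 430.4 at 0 h, 125.8, 299.2 and 484.7 at 1 h and 414.3, 1382 and 4049 at 4 h. A single array at 4 h lay within the levels of 0 h, and those of codes 12 to 22 were the lowest at 4 h. The rise of 2.47 ± 0.49 on the log2 scale (limma, adjusted p = 0.000875) was 3.11, 2.57 and 1.73 in codes 44 to 54, 32 to 37 and 12 to 22. Its other tested probe set, at 0.92, did not pass (adjusted p = 0.0655).

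Pfkfb4 carries both activities and is known as a gene that hypoxia raises in many cells. Its signals were 1049, 1363 and 1542 at 0 h, 977.1, 1178 and 1459 at 1 h and 326.6, 418.8 and 475.0 at 4 h. No array at 4 h reached even the lowest array of the earlier times. A log2 fold change of -1.64 ± 0.13 (limma, adjusted p = 1.30e-07) had the lowest adjusted p of the list and was -1.53, -1.82 and -1.57 in codes 44 to 54, 32 to 37 and 12 to 22. Pfkfb2, known from heart, had signals of 131.3, 196.5 and 244.4 at 0 h, 146.6, 191.2 and 254.7 at 1 h and 51.4, 72.2 and 131.9 at 4 h. One array at 4 h touched the lowest of 0 h. Pfkfb2 stood at -1.09 ± 0.19 on the log2 scale (limma, adjusted p = 0.000286), and its other tested probe set, at -0.36, did not pass (adjusted p = 0.188).

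The enzymes of the lower pathway, which yield ATP and pyruvate, passed the test at 4 h for Eno2 alone. Pgk1, the first of them to form ATP, had median signals of 22396 at 0 h, 21600.2 at 1 h and 22048 at 4 h and a log2 fold change at 4 h of -0.02 ± 0.13 (limma, adjusted p = 0.922). Pkm, pyruvate kinase, was at -0.14 ± 0.13 (adjusted p = 0.428). Pgam1, phosphoglycerate mutase, was at 0.33 ± 0.18 (adjusted p = 0.154) and passed with code range as a block (adjusted p = 0.0207). Gapdh, the enzyme that links the upper and lower pathway, had median signals of 36700 at 0 h, 34888 at 1 h and 32399 at 4 h on its brightest control probe set. In a fit with the control probe sets kept, its log2 fold change at 4 h was -0.41 ± 0.18 (limma, adjusted p = 0.0852). That probe set lies at the 5′ end of the transcript, and the array with the highest Gapdh ratio of 3′ to 5′ signal, code 37, belongs to 4 h. The part of this ratio in the value was not tested.

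Eno2, the neuronal form of enolase, rose. It was dim, with signals of 10.1, 56.8 and 109.9 at 0 h, 8.17, 49.2 and 132.4 at 1 h and 112.2, 161.3 and 247.1 at 4 h. The arrays of 4 h lay above those of 0 h by a narrow margin and overlapped those of 1 h. The log2 rise was 1.46 ± 0.38 (limma, adjusted p = 0.0071). It exceeded its array's median on 8 of 18 arrays, the 6 of 4 h and 1 each of 0 h and 1 h, so it passed the filter on dim probe sets through the time at which it was high.

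Pyruvate is turned to lactate by lactate dehydrogenase, a mix of the subunits Ldha and Ldhb, and lactate crosses the membrane through Slc16a1 (MCT1) and Slc16a3 (MCT4, the form tied to lactate export). Of these 4, Ldhb alone passed. Ldhb had signals of 253.5, 288.2 and 328.8 at 0 h, 223.9, 274.7 and 393.1 at 1 h and 153.9, 210.4 and 263.5 at 4 h, with overlap. The log2 fold change of -0.46 ± 0.15 (limma, adjusted p = 0.0269) lost its call with any one of codes 47, 44, 34, 18 or 16 left out and was -0.18 with the array medians set equal (adjusted p = 0.363), while another of its probe sets fell by 1.21 and further ones, at -0.77 (adjusted p = 0.0552) and -0.54 (adjusted p = 0.078), did not pass. Ldha was at 0.12 ± 0.19 (adjusted p = 0.664), with medians of 18046 at 0 h, 18447 at 1 h and 17899 at 4 h.

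Slc16a3 had a log2 fold change of 1.25 ± 0.58, which did not pass (adjusted p = 0.109) beside a spread of 180.9 to 1699 at 0 h. In codes 44 to 54 its signals were 518.5 and 1052 at 4 h, against 197.5 and 199.7 at 0 h. In codes 12 to 22 they were 423.4 and 922.3 at 4 h, against 180.9 and 287.2 at 0 h. In codes 32 to 37 they were 1485 and 1722 at 4 h, against 710.8 and 1699 at 0 h, so this range was already high at the start. With code range as a block Slc16a3 passed (limma, adjusted p = 0.00454). Slc16a1 was at 0.30 ± 0.22 (adjusted p = 0.326).

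Pyruvate dehydrogenase, of which Pdha1 is a subunit, sends pyruvate into the mitochondrion, and the kinases Pdk1, Pdk2 and Pdk3 switch it off. Of these 4 genes 1 fell. Pdk2 had signals of 122.5, 159.8 and 262.1 at 0 h, 88.5, 147.4 and 191.0 at 1 h and 30.8, 48.3 and 75.0 at 4 h. Each array at 4 h stood below each array of the earlier times, at a log2 fold change of -1.51 ± 0.21 (limma, adjusted p = 3.16e-05). Pdk2 was dim at 4 h, where the array medians were 74.7 to 87.5, and exceeded its array's median on 12 of 18 arrays. Pdk1, the kinase best known as a HIF-1 target, was at -0.23 ± 0.21 (adjusted p = 0.427) on its brightest probe set, while another of its probe sets fell by 0.50 (adjusted p = 0.00668) and further ones, at -0.18 and 0.02, did not pass. Pdk3 was at -0.17 ± 0.15 and Pdha1 at -0.27 ± 0.10, which did not pass in the main fit but passed with code range as a block (adjusted p = 0.017). The other probe set of Pdha1, at -0.60 ± 0.23, just missed the threshold in the main fit (limma, adjusted p = 0.0503).

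Hif1a encodes the regulated subunit of HIF-1. Its signals were 4220.0, 6880.4 and 13303 at 0 h, 4384, 8177 and 14953 at 1 h and 10309.8, 15768 and 20011 at 4 h. The groups overlapped because the arrays of codes 32 to 37 were already bright at 0 h, and both arrays of 4 h were above both of 0 h within each range. Hif1a rose by 1.15 ± 0.32 on the log2 scale (limma, adjusted p = 0.0107), or by 1.19, 0.72 and 1.54 in codes 44 to 54, 32 to 37 and 12 to 22. Another of its probe sets rose by 1.43, and a pair of further ones, at 0.63 (adjusted p = 0.412) and 0.23 (adjusted p = 0.782), did not pass. The prolyl hydroxylases Egln1, Egln2 and Egln3, which tag the HIF-1 alpha subunit, were at 0.40 ± 0.20, 0.39 ± 0.15 and 0.33 ± 0.40, and none passed at 4 h against 0 h. Egln2 passed with code range as a block (limma, adjusted p = 0.0368). With the array medians set equal, 3 of the 4 genes Hif1a, Egln1, Egln2 and Egln3 rose.

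Of the other 5 HIF-1 targets 3 rose. Adm, which encodes the vessel-widening peptide adrenomedullin, had signals of 58.6, 99.7 and 340.9 at 0 h, 17.5, 114.3 and 247.7 at 1 h and 258.8, 470.7 and 940.1 at 4 h. Adm rose by 1.87 ± 0.50 on the log2 scale (limma, adjusted p = 0.0077), and its other probe set rose by 1.55. The overlap came from codes 44 to 54, where 4 h was at 637.3 and 940.1, against 188.1 and 340.9 at 0 h.

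Bnip3, a mitochondrial protein involved in the removal of mitochondria, had signals of 1455, 2169 and 3515 at 0 h, 1435, 1812 and 3232 at 1 h and 2924, 3975 and 7648 at 4 h, at a log2 fold change of 1.04 ± 0.27 (limma, adjusted p = 0.0071). Ddit4, an inhibitor of the growth kinase complex mTORC1, had signals of 246.6, 602.4 and 734.9 at 0 h, 242.4, 484.1 and 686.2 at 1 h and 460.1, 1063 and 1543 at 4 h. For both genes the lowest arrays at 4 h reached into the levels of 0 h. The log2 fold change of Ddit4 was 0.97 ± 0.33 (limma, adjusted p = 0.0325), and the call was lost with any one of codes 49, 46, 34, 18, 16 or 12 left out, at an adjusted p of up to 0.0808. Vegfa, the vessel growth factor, was at 0.07 ± 0.17 (adjusted p = 0.78) and Ankrd37 at 0.05 ± 0.39 (adjusted p = 0.936).

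At 1 h against 0 h, 0 of 36 genes passed by limma, with 1 at an unadjusted p under 0.05, while 0.612% of all probe sets were called up and 0.14% down. Log2 fold changes lay between -0.51 and 1.00 with standard errors of 0.10 to 0.58, so smaller early changes were not detectable with these arrays. The gene with the unadjusted p was Slc2a6, at 1.00 ± 0.30 (adjusted p = 0.21). Its 2 arrays at 1 h were higher than the 2 at 0 h in each range of codes, at 979.9 and 1182 against 380.8 and 438.8 in codes 44 to 54, 1705 and 1768 against 709.8 and 899.7 in codes 32 to 37, and 496.9 and 692.3 against 398.6 and 399.5 in codes 12 to 22. Slc2a6 passed without the array of code 14 (limma, adjusted p = 0.0308) and within codes 44 to 54 alone (adjusted p = 0.0451), and missed the threshold with code range as a block (adjusted p = 0.0724).

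Between 1 h and 4 h, a comparison that shares the arrays of 4 h with the one above, 17 genes were called, 11 up and 6 down, beside 7.7% and 16.7% of all probe sets. With code range as a block 23 genes were called, 16 up and 7 down, beside 10.6% and 23.3%, and with the array medians set equal 16 rose and 5 fell, beside 14.4% and 6.94%. Egln2 was among those that rose. Its signals were 882.1, 1121.5 and 1208.6 at 0 h, 731.1, 1064.4 and 1361.8 at 1 h and 1184.2, 1360.0 and 1859.0 at 4 h, with overlap between all times. Against 1 h it rose by 0.46 ± 0.15 on the log2 scale (limma, adjusted p = 0.0371). Slc2a1 had a log2 fold change of 2.28 ± 0.25 against 1 h, beside 2.47 against 0 h. Adm was at 2.15 ± 0.50 against 1 h, beside 1.87 against 0 h, and Pfkfb4 at -1.51 ± 0.13, beside -1.64. Ldhb (adjusted p = 0.0456), Hif1a (0.0339) and Egln2 lost their calls in 21, 10 and 8 of their 29 alternatives.

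The genes were also read between ranges of array codes, with time as a covariate. The labels do not say what the ranges are, and the marker lists differed between them. The mean log2 signal of the stromal markers, of which 7 of 8 passed the filter, was 10.31 to 10.73 in codes 44 to 54, 8.64 to 9.39 in codes 32 to 37 and 6.92 to 7.61 in codes 12 to 22. The neutrophil markers (6 of 12 passed) lay at 6.41 to 7.67, 7.63 to 8.69 and 8.49 to 9.21, and the cell cycle genes (13 of 14 passed) at 9.58 to 10.27, 11.21 to 11.63 and 9.92 to 11.24. The macrophage markers, 13 of 14 of which passed, lay at 12.50 to 12.85, 12.53 to 12.85 and 12.37 to 12.53. Few T cell (1 of 8), B cell (2 of 6) and erythroid markers (2 of 8) passed. The part of these lists in the differences below was not tested.

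In codes 44 to 54 against 12 to 22, 14 genes passed, 5 up and 9 down, beside 10.5% of all probe sets called up and 8.66% called down. Of the 6 trunk enzymes, Aldoa, Tpi1, Pgam1 and Ldha lay lower in codes 44 to 54, and Pgk1 (-0.12 ± 0.09) and Pkm (0.06 ± 0.10) did not pass. Aldoa had signals of 10252 to 15177 in codes 44 to 54, 16154 to 22089 in 32 to 37 and 17717 to 24869 in 12 to 22, so that codes 44 to 54 lay below both other ranges at every time. Its log2 difference from codes 12 to 22 was -0.78 ± 0.10 (limma, adjusted p = 6.79e-05). Tpi1 was at -0.73 ± 0.11, Pfkp at -0.70 ± 0.11, Ldha at -0.45 ± 0.09 and Pgam1 at -0.44 ± 0.11. Hk3, Pdk1, Egln3 and Bnip3 were the others lower there. Adm (1.54 ± 0.34), Pfkfb3 (1.47 ± 0.31), Ddit4 (1.14 ± 0.19), Hif1a (0.62 ± 0.15) and Slc16a1 (0.55 ± 0.18) were higher. Slc16a1, Pdk1 and Bnip3 missed the threshold in 17, 8 and 10 of 28 alternatives.

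In codes 32 to 37 against 12 to 22, 7 genes passed, 6 up and 1 down, beside 9.65% and 8.12% of all probe sets. With the array medians set equal 5 were up and 0 down, beside 9.21% and 6.7%. Slc16a3 was higher by 1.82 ± 0.31 (limma, adjusted p = 0.001), Pfkfb3 by 1.44 ± 0.31, Hif1a by 1.22 ± 0.15, Slc2a1 by 0.90 ± 0.13, Ddit4 by 0.83 ± 0.19 and Pkm by 0.31 ± 0.10. Egln3 was the gene lower, at -0.87 ± 0.29. Hif1a at 0 h had signals of 10495 and 13303 in codes 32 to 37, against 4220.0 and 4403 in codes 12 to 22. Pkm and Egln3 missed the threshold in 17 and 19 of 28 alternatives.

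In codes 44 to 54 against 32 to 37, 11 genes passed, 1 up and 10 down, beside 8.87% and 8.25% of all probe sets. Adm was higher, at 1.13 ± 0.34. Slc16a3 was at -1.85 ± 0.31 (limma, adjusted p = 0.000735), Tpi1 at -0.90 ± 0.11, Aldoa at -0.69 ± 0.10, Ldha at -0.68 ± 0.09, Slc2a1 at -0.62 ± 0.13, Hif1a at -0.61 ± 0.15, Pfkp at -0.60 ± 0.11 and Pgam1 at -0.53 ± 0.11. Pdk3 and Pgk1 were lower by less than these. Adm, Pdk3 and Pgk1 did not pass when the arrays of codes 36 and 37 were left out.

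**Figure D3:**
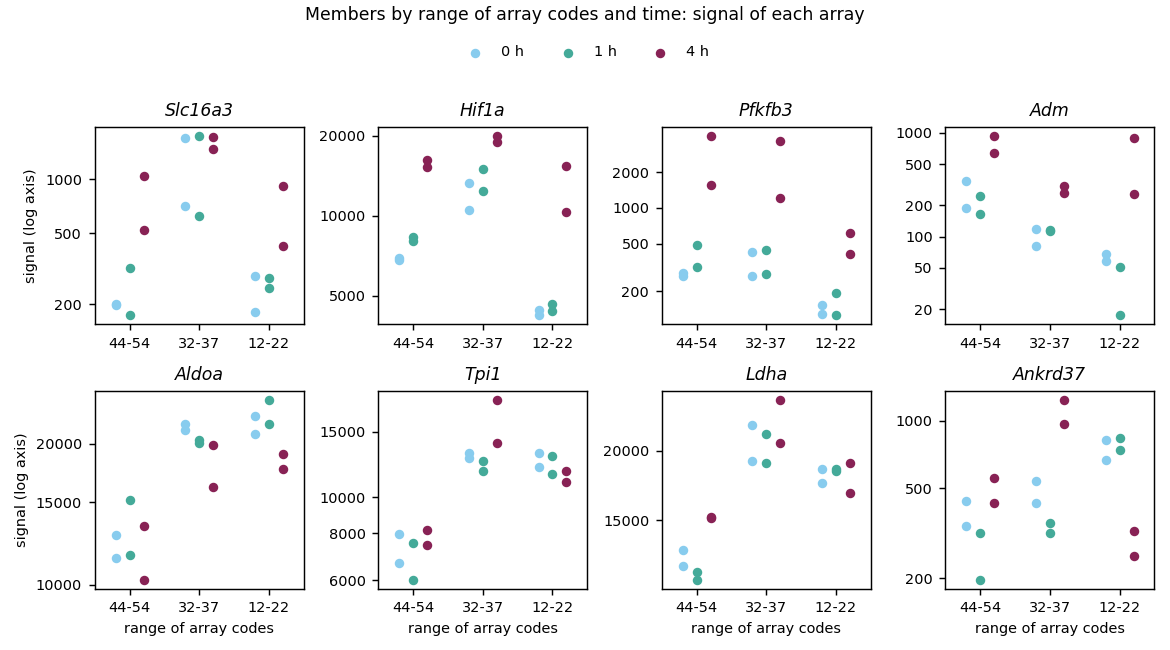
Signal on a log axis of each array for 8 genes by range of array codes, coloured by time, with 2 arrays per time in each range. Aldoa, Tpi1 and Ldha lie lower in codes 44 to 54 than in the other ranges at every time, Hif1a at 0 h and 1 h is highest in codes 32 to 37, and Ankrd37 at 4 h lies lowest in codes 12 to 22.

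The rise or fall at 4 h was tested for a difference between ranges with an interaction of time and range. Of the 36 genes, 1 passed, beside 0.837% of all probe sets. This was Ankrd37, a small HIF-1 target of unsettled function, with an adjusted p of 0.0174 by limma. Its signals in codes 44 to 54 were 430.6 and 558.5 at 4 h, against 339.4 and 439.1 at 0 h. In codes 32 to 37 they were 971.4 and 1239 at 4 h, against 431.9 and 538.0 at 0 h. In codes 12 to 22 they were 249.8 and 322.4 at 4 h, against 670.5 and 821.6 at 0 h. Its log2 fold changes of 0.33, 1.16 and -1.34 in these ranges differed by 2.50 ± 0.36 between codes 32 to 37 and 12 to 22 (limma, adjusted p = 0.00664). The interaction lost its call with any one of codes 32, 35, 22, 18 or 12 left out. The plot of changes within ranges shows the remaining genes, whose differences between ranges did not pass.

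**Figure D4:**
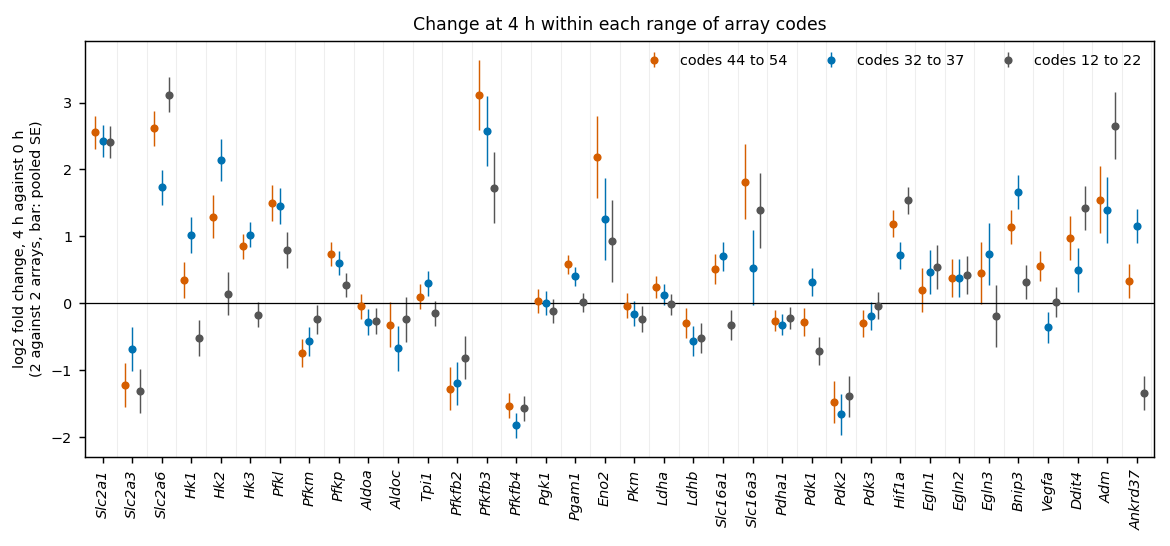
Log2 fold change of signal + 16 at 4 h against 0 h within each range of array codes for the 36 tested genes (2 arrays against 2, bars are standard errors pooled over all 9 combinations of time and range). Pfkfb4 and Pdk2 lie together in all ranges, while Ankrd37 stands at 0.33, 1.16 and -1.34.

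Genes of neighbouring pathways, in lists that took 93 genes of which 80 were tested, gave 8 rises (10%) and 19 falls (23.8%) at 4 h, close to the 9.93% and 23.1% of all probe sets, and 0 calls of either kind at 1 h. The shares of single lists are to be read against the same 2 percentages and rest on few genes. These lists were not read with the array medians set equal, where 9.54% of all probe sets were called down. Of 13 tested further hypoxia targets 4 rose (30.8%) and 2 fell (15.4%). Bhlhe40, a transcriptional repressor, rose by 2.33 ± 0.30 (limma, adjusted p = 1.45e-05) and Hmox1, which breaks down haem, by 2.31 ± 0.47, while Mxi1, an antagonist of MYC, had a log2 fold change of -1.23 ± 0.44. Siah2, a ubiquitin ligase that targets prolyl hydroxylases, was the 1 of 10 further genes of the HIF system that passed, at 1.11 ± 0.19. Of 13 tested other carbohydrate genes, Gpd2, the mitochondrial glycerol phosphate dehydrogenase, rose by 2.05 ± 0.31, and 5 fell (38.5%). Txnip, which restrains glucose uptake, had a log2 fold change of -2.55 ± 0.24 (limma, adjusted p = 6.39e-07), and the sugar phosphate carrier Slc37a2 of -1.92 ± 0.25.

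The citrate cycle list, which also takes cytosolic forms, had 1 rise (5%) and 7 falls (35%) among 20 tested genes, beside 9.93% and 23.1% of all probe sets. The cytosolic isocitrate and malate dehydrogenases Idh1 and Mdh1 were at -1.16 ± 0.21 and -0.67 ± 0.12, and Fh1 at -0.57 ± 0.11. The falls are thus not all of the mitochondrial cycle. The median log2 fold change of the list was -0.32, beside -0.22 over all probe sets. Of 9 tested glycogen genes 5 fell (55.6%, beside 23.1%), among them the glycogen primer Gyg at -0.99 ± 0.16 and the phosphorylases Pygb at -0.81 ± 0.13 and Pygl at -0.80 ± 0.16. Of 9 genes of pyruvate entry 1 rose, Dld, the shared subunit of the pyruvate and oxoglutarate dehydrogenases, at 0.58 ± 0.15. None of the 6 tested pentose phosphate genes passed, and their median log2 fold change was -0.21.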

How the data were processed

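The deposited values are signal intensity on a linear scale, 1 per probe set and array; MAS5 and GCOS are named for them per the submitters' processing notes, with no version or settings. The trimmed mean of every array was 500. Arrays were grouped by the time in their own labels. The platform annotation gives a single symbol to 34958 of 45101 probe sets, several to 932 and none to 9211. Control probe sets (64) were left out, and probe sets above the median of their own array on at least 4 of 18 arrays were kept. Differences between the means of the times were fitted with limma 3.58.1 in R 4.3.3, with code range as a block as an alternative, and differences between ranges with time as a covariate. P-values were adjusted over all kept probe sets; "rose", "fell" and "passed" refer to the threshold of 0.05. Alternatives were the pseudocount (1 or 64), the filter (none, or 12 arrays), equal medians, quantile normalization, trend and robust moderation, each array left out, the groups compared alone, each range alone and the probe set of smallest p. Keeping control probe sets and leaving out codes 36 and 37 were added after seeing the data. The fits were also run on simulated data, with independent noise around the means of 0 h and added changes. Apart from those changes the simulated code ranges did not differ, unlike the real ones. That run therefore does not show how the fits behave on the real arrays. The genes and lists were chosen with earlier results of these data known. All genes of the list are accounted for, those called at any time with their levels, and neighbouring lists name up to 4 called genes of largest change at 4 h. The number of arrays limits the precision.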

Additional observations from a re-analysis of the deposited data

Results flagged for a closer look

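Of 117 groups of 6 arrays examined, 7 held an array whose gap to the nearest other array, as a share of the whole range, passed Dixon's critical value for 6 values, where chance gives about 1 in 20. For Pfkl at 1 h the array of code 54 stood low, at a signal of 879.6, with the others between 1186 and 1387. For Pkm at 1 h the array of code 36 stood high, at 23913, with the others between 16255 and 18397. For Egln1 at 4 h the array of code 16 stood high, at 2229.5, with the others between 1064 and 1285. The ratio of 3′ to 5′ signal of Gapdh, which rises as RNA degrades, was 1.28 on the array of code 36 at 1 h and 1.51 on that of code 37 at 4 h, with 0.681 to 0.832 on the 16 other arrays. For Actb the ratio was 2.44 on code 36 and 1.98 on code 37, with 1.20 to 1.56 on the other arrays. Without these 2 arrays 16 genes were called at 4 h against 0 h, 10 up and 6 down, as with them. Ankrd37 was the gene whose response at 4 h differed between code ranges (adjusted p = 0.0174). Without codes 36 and 37 it did not pass.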

How the results depend on the processing

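The number of genes of the list called at 4 h against 0 h stayed within 1.5 times its value in every alternative run, and between 14 and 17 with each array left out. Over all probe sets, 8532 were called at 4 h and 7485 to 8725 with each array left out, but 4731, 3908 and 5260 within codes 44 to 54, 32 to 37 and 12 to 22 alone, where 2 arrays meet 2. At 1 h, 194 probe sets were called, 108 to 418 with each array left out, 339 with code range as a block, 107 without codes 36 and 37, 104 with the 2 times alone and 0 within codes 12 to 22. Of the list, 0 to 1 gene was called at 1 h with each array left out and 1 within codes 44 to 54. At 4 h against 1 h, 6286 probe sets were called, 5447 to 6381 with each array left out, 2441 within codes 32 to 37 and 2914 within codes 44 to 54. Of the list 17 genes were called there, 14 to 18 with each array left out and 10 within codes 12 to 22. Between ranges the genes called numbered 11 to 15, 5 to 8 and 9 to 12 with each array left out. The interaction of Ankrd37 gave 0 genes with no filter and without codes 36 and 37, 3 with trend and robust moderation, and 0 to 2 with each array left out. Choosing the probe set of smallest p gave 20 genes at 4 h, 12 up and 8 down. Beyond the construction of each alternative, the cause was not tested. No gene of the list called at 4 h against 0 h reversed its direction in the alternatives counted below. Genes not called could do so. Hk1, Hk3, Slc16a1, Ankrd37, Egln3, Tpi1 and Ldha had positive log2 fold changes over all arrays that did not pass. Within codes 12 to 22 their mean log2 signal was lower at 4 h than at 0 h, for Ldha only slightly. Over all probe sets at 4 h, 9.93% were called up and 23.1% down, but 17.3% up and 9.54% down with the array medians set equal. Of single called values at 4 h against 0 h, 446 kept their side of the threshold over the alternatives counted and 17 did not, those of Ddit4, Ldhb and Pfkm. That count leaves out the fits of each range alone and the probe set of smallest p. It also leaves out Eno2 under the filter of 12 arrays, where Eno2 was not tested. No analysis paired by replicate was possible because the replicate numbers were given in accession order and pair no arrays. The fit with code range as a block compared the times within ranges instead.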
